A study of Homo sapiens with 2 samples.

Results

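The Wnt pathway genes of PC9 cells were examined for differences between a control library and a library from cells expressing TAZ4SA. The members were chosen by name: symbols of the WNT, FZD, DKK, SFRP, LGR, AXIN and DVL families, the TCF7 group, ROR1 and ROR2, and LEF1, LRP5, LRP6, RNF43, ZNRF3, NKD1, PORCN and APC. This rule found 42 of the 16642 genes in the deposited table. Other genes whose symbols fit the rule, among them WNT1, WNT3A, FZD8, FZD10, DKK4, LGR5 and ROR2, had no match among the 16642 and were not analysed here.

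PC9 is an established human lung adenocarcinoma cell line with an activating deletion in EGFR. TAZ, encoded by WWTR1, is a transcriptional co-activator that works through TEAD factors, and in the mutant TAZ4SA serines targeted by the LATS kinases are alanine. The control group was labelled PC9 Control and the other group expressed TAZ4SA from a doxycycline-inducible lentiviral Tet-On vector, with induction at 50 ng/mL for 24 h. The labels give 1 protocol for both samples and do not say whether control cells carried a vector or received doxycycline, so an effect of either cannot be told apart from that of TAZ4SA. There was 1 library per group, so no test between the groups was possible and the spread between cultures is unknown.

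Wnt proteins are secreted lipid-modified ligands that bind frizzled receptors together with LRP5 or LRP6, or with ROR receptors. In the canonical branch, receptor activation through dishevelled proteins blocks the AXIN and APC complex that destroys beta-catenin, which then acts with TCF/LEF factors in the nucleus. Other branches act without beta-catenin, through planar cell polarity and calcium signalling, and WNT5A and WNT11 are their best known ligands. YAP and TAZ have been linked to the pathway both as parts of the beta-catenin destruction complex and as activators of secreted Wnt antagonists.

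The libraries held 29668388 reads for TAZ4SA and 47684754 for the control. Levels are normalized counts, which are reads divided by 1 size factor per library. Genes averaging 20 or more normalized counts over both libraries were taken as measured, which left 14074 genes and 41 of the 42 members. Log2 ratios were computed from the normalized count plus 1, TAZ4SA over control, and folds from the normalized counts themselves. Ranges in brackets are 95% intervals of counting error only. WWTR1 stood at 15628 normalized counts with TAZ4SA and 4933 in the control. The TAZ target genes CYR61, ANKRD1 and CTGF were 4.80-fold, 9.51-fold and 14.7-fold higher. The fold of CTGF rested on 64 and 7 reads, at 92.8 against 6.30 normalized counts, and was the least certain (6.76 to 38.1). All 9 epithelial markers examined were measured in both libraries, with summed levels of 367526 and 323095 normalized counts. Of 10 leukocyte markers 4 were in the table, at a sum of 82.7 against 54.0 normalized counts, and of 10 fibroblast markers COL1A1 alone was there, at 490 against 413. Of 10 endothelial markers 5 were in the table, summing to 2974 with TAZ4SA and 3340 in the control, mostly CDH5, ESAM and EGFL7. Their part in the results was not tested.

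Differences in the pathway went both ways, and the genes called were ligand, receptor, antagonist and TCF factor genes. At a threshold of 1.5-fold, with an interval that excluded a ratio of 1, 4 members were higher with TAZ4SA and 6 were lower. The same rule called 4.16% of all measured genes higher and 4.44% lower, against 9.76% and 14.6% of the 41 members. Those higher were the TCF factor gene TCF7L1, the ligand gene WNT10B, the antagonist gene DKK1 and the receptor gene FZD2. Those lower were the ligand genes WNT5A, WNT11 and WNT5B and the R-spondin receptor gene LGR6. The TCF factor gene TCF7 and the receptor gene FZD4 were also called lower. LGR6 was below the filter value with TAZ4SA and passed the filter through its control level.

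At 2-fold, 1 member (TCF7L1) was higher, beside 1.9% of all measured genes, and 3 (WNT5A, WNT11 and LGR6) were lower, beside 1.56%. Of these, LGR6 passed the filter only through its control level, and the 1 call higher is no result about the members. Intervals excluded a ratio of 1 at any size in 14 members above it and 13 below it, while 24.5% and 25.2% of all measured genes were so placed. The median log2 ratio of the members was 0.06, against 0.00019 over all measured genes, and their middle 50% ran from -0.16 to 0.28, against -0.16 to 0.14. The median size of the log2 ratio, whatever its sign, was 0.28 in the members and 0.15 over all measured genes. Among genes with a mean of at least 100 normalized counts these sizes were 0.26 for 32 members and 0.13 for 11593 genes. Among those 32, 3 were called higher at 1.5-fold, beside 2.81% of the 11593, and 4 lower, beside 3.32%.

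**Figure D1:**
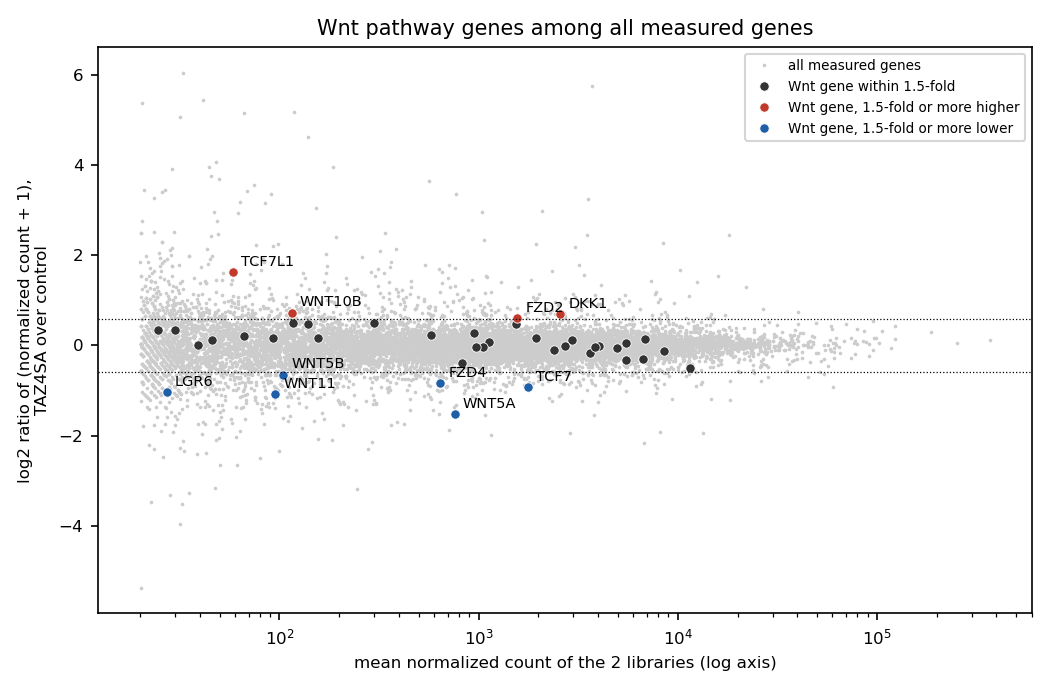
Log2 ratio, TAZ4SA over control, against the mean normalized count (log axis) for the 14074 measured genes in grey and the 41 measured Wnt pathway genes in colour, with dotted lines at 1.5-fold. Of the Wnt genes, 4 lie above the upper line (red) and 6 below the lower line (blue), WNT5A lowest of all.

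The ligands were led by WNT7B, a Wnt of lung airway epithelium, and its close paralog WNT7A. WNT7B had 8222 normalized counts with TAZ4SA and 8928 in the control, and WNT7A had 3441 and 3853. In bulk RNA, fewer cells expressing a gene and less of its RNA per cell cannot be told apart. Both genes were slightly lower with TAZ4SA, WNT7B by 1.09-fold (1.05 to 1.12) and WNT7A by 1.12-fold (1.06 to 1.18). Per kilobase of exon, the main scale for comparing genes within a role here, the 2 made up 75.8% of the summed level of the 12 ligand genes with TAZ4SA and 75.3% in the control. The summed level itself was 3138 normalized counts per kilobase against 3466.

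WNT5A (ENSG00000114251), the main ligand of beta-catenin-independent signalling, showed the lowest ratio of all members. The gene stood at 390 normalized counts with TAZ4SA, from 269 reads, and at 1125 in the control, from 1250 reads. That was 2.88-fold lower (2.52 to 3.30), a log2 ratio of -1.52, and placed the gene at rank 69 from the lowest of the 14074 measured. In the control it was the fifth ligand gene by level per kilobase, at 152 normalized counts per kilobase. With TAZ4SA it was at 52.7, close to WNT10B at 54.6. By the length of the longest transcript, WNT5A made up 1.649% and WNT10B 1.648% of the summed ligand level with TAZ4SA. Their order thus depends on the length used.

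WNT11 and WNT5B were also called lower, at smaller levels. WNT11, a ligand of planar cell polarity, had 60.9 normalized counts against 130, or 42 reads against 144, and was 2.13-fold lower (1.499 to 3.08). WNT5B, the close paralog of WNT5A, had 81.2 against 128 and was 1.57-fold lower (1.15 to 2.18). Together WNT5A, WNT5B and WNT11, a grouping made after their values were seen, made up 6.80% of the summed ligand level per kilobase in the control and 3.09% with TAZ4SA.

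WNT10B, a ligand of the canonical branch, was the ligand with the highest ratio. It had 144 normalized counts with TAZ4SA and 86.4 in the control, from 99 and 96 reads, and was 1.66-fold higher (1.24 to 2.22). WNT4, which can act in either branch, was 1.42-fold higher (1.06 to 1.89), at 138 against 97.2, which is short of the threshold. The control reads were also thinned to the depth of the TAZ4SA library, in a single random draw. In that draw WNT10B was just short of the threshold, at a log2 ratio of 0.584, and WNT4 passed it, at 0.69. For WNT9A, WNT3, WNT2B, WNT10A and WNT6 the intervals included a ratio of 1, with log2 ratios from -0.04 to 0.17. WNT6 and WNT10A are next to each other among protein-coding genes in the annotation and had 39.2 against 38.7 and 47.9 against 44.1 normalized counts. Exons of WNT2B share 2661 bases with ST7L on the opposite strand (804 against 763 normalized counts). The sources used here do not say whether the counting used strand.

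PORCN, the enzyme that adds the lipid to Wnt proteins, had 628 normalized counts with TAZ4SA and 533 in the control, 1.18-fold higher (1.04 to 1.34). WLS, the carrier that brings lipid-modified Wnts to the cell surface, is no member but belongs to the same step. It had 1095 normalized counts against 696 and was 1.57-fold higher (1.42 to 1.74).

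Of the secreted antagonists, the 2 abundant ones differed in opposite directions. DKK1 (ENSG00000107984), which blocks LRP5 and LRP6, had 3178 normalized counts with TAZ4SA and 1971 in the control. It was 1.61-fold higher (1.52 to 1.71), and its read count was 2191 in both libraries, so that its ratio equals that of the size factors. SFRP1, which binds Wnt proteins directly, had 9594 against 13477 normalized counts. It was 1.40-fold lower (1.36 to 1.45), inside the 1.5-fold line but with a narrow interval from 6614 and 14978 reads. Per kilobase, SFRP1 led the antagonists in both libraries, at 2015 with TAZ4SA and 2831 in the control, and DKK1 was at 1441 and 894. DKK3, a divergent member of the DKK family, had 6 and 14 reads and was the member that did not pass the filter.

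DKK1, WNT5A and WNT5B have been named in the literature as YAP and TAZ targets that oppose canonical signalling, along with the secreted factor genes BMP4 and IGFBP4. In these 2 libraries the 5 genes did not share a direction. BMP4 had 641 normalized counts with TAZ4SA and 342 in the control, 1.88-fold higher (1.63 to 2.16), on the side of DKK1. IGFBP4 was at 4977 against 4985, a ratio of 0.998 (0.957 to 1.04). WNT5A and WNT5B were lower.

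The promoters of DKK1 and WNT5A are printed because DKK1 was the antagonist called higher and WNT5A the most abundant ligand called lower. Each line holds the 250 bases before a RefSeq transcription start in GRCh38.p14, a different build from the GRCh37 of the processing. Capitals mark CATTCC or its reverse complement GGAATG, the core of the element bound by TEAD factors. The DKK1 sequence is chr10:52314031-52314280 on the plus strand, and the WNT5A sequences, for its upstream and downstream starts, are chr3:55487307-55487556 and chr3:55481399-55481648 on the minus strand.
DKK1: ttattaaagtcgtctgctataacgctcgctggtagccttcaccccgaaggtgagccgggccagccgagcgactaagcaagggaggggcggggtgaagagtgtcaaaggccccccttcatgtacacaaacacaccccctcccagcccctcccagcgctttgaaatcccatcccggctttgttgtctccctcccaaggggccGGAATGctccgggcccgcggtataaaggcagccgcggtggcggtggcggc
WNT5A upstream: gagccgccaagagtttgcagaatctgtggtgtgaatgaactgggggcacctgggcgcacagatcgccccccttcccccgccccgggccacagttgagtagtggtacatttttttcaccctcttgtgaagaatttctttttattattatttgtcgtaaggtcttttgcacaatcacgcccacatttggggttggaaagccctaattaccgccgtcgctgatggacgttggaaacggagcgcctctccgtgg
WNT5A downstream: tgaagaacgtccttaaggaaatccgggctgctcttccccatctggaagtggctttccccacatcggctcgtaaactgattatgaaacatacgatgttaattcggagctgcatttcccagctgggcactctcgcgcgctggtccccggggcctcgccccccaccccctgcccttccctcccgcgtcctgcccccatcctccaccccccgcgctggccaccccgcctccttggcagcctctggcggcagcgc
DKK1 holds GGAATG once, at position 201 of this window, and the WNT5A windows hold neither form. RefSeq windows of 300 bases, from 250 before to 50 after a start, were at hand for 29 of the 42 members, 40 windows in all. Searching both strands, 3 of the 40 held the TEAD-type letters, those of DKK1, APC and RNF43, against 14.03% of all 35116 windows. The TCF-type letters CTTTGAT or ATCAAAG were in 0 of the 40 and in 2.62% of all windows. Other TCF-type forms were not searched, and the DKK1 sequence above holds CTTTGAA, which differs in the last letter. A match of letters describes the sequence and does not show a bound site.

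**Figure D2:**
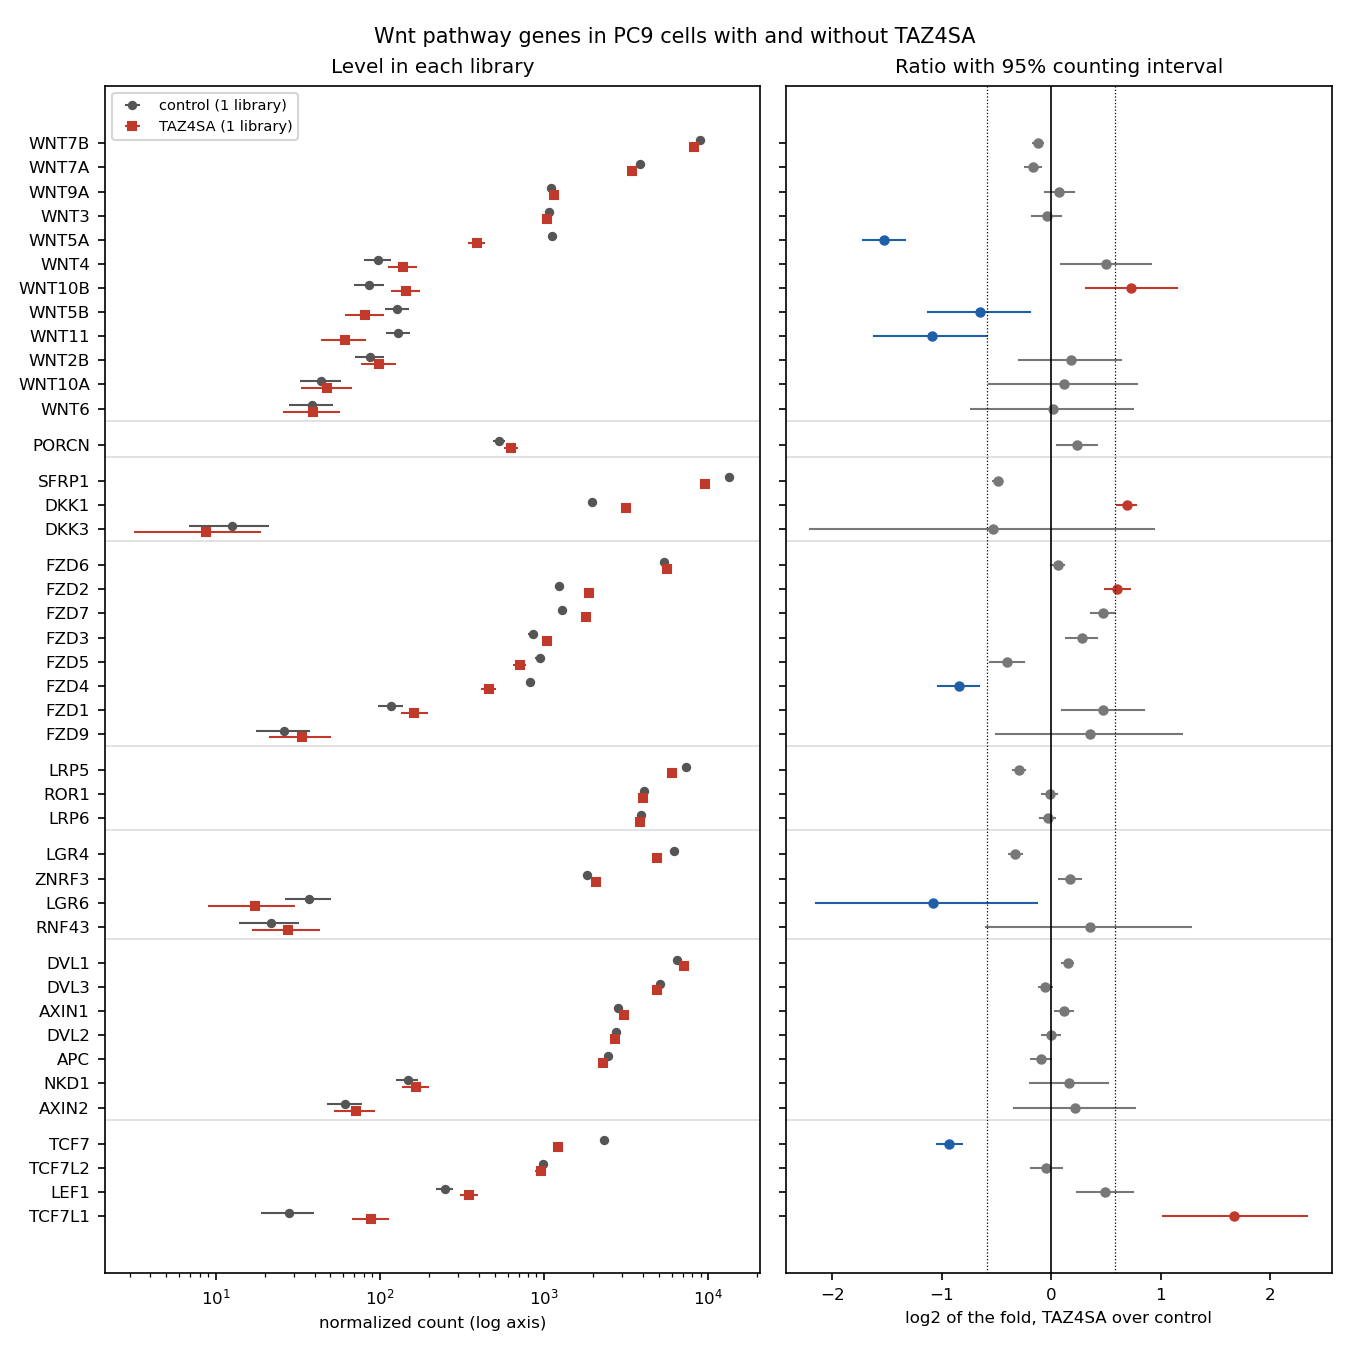
The left panel shows the normalized count (log axis) of each of the 42 members in the control (grey circles) and TAZ4SA (red squares) library with exact 95% Poisson intervals, ordered by role from ligands at the top to TCF/LEF factors at the bottom. The right panel shows log2 of the fold with its 95% counting interval, red for the 4 members called higher and blue for the 6 called lower, with dotted lines at 1.5-fold.

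Frizzled receptor genes went both ways. FZD1, FZD2 and FZD7, which form a sequence subfamily of their own, were each higher with TAZ4SA. FZD2 had 1891 normalized counts against 1243 and was 1.52-fold higher (1.41 to 1.64). FZD7 had 1791 against 1290 and FZD1 162 against 117, both 1.39-fold higher, with intervals of 1.29 to 1.499 and 1.07 to 1.80. FZD2 alone of the 3 passed the 1.5-fold line. In the single random draw of thinned control reads FZD1 did so too, at a log2 ratio of 0.598.

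FZD4, which is also the receptor of Norrin, was lower, with 460 normalized counts against 825, from 317 and 917 reads. It was 1.79-fold lower (1.58 to 2.05). Exons of FZD4 share 1399 bases with those of PRSS23 on the opposite strand, and PRSS23 stood at 13822 normalized counts with TAZ4SA and 11177 in the control. The part of this overlap in the FZD4 value was not tested. FZD5 had 714 against 942 and was 1.32-fold lower (1.18 to 1.47).

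FZD6 was the most abundant frizzled gene per kilobase and was nearly level, with 5640 normalized counts against 5413 (1.04-fold, 1.0004 to 1.08). Its relative FZD3 had 1041 against 857 and was 1.21-fold higher (1.10 to 1.34), and the interval of FZD9, on 23 and 29 reads, included 1. Per kilobase, FZD1, FZD2 and FZD7 together stood at 1383 with TAZ4SA and 940 in the control. That was 45.7% of the summed frizzled level with TAZ4SA and 36.2% in the control, while FZD6 went from 51.3% in the control to 45.8%. The frizzled sum was 3029 against 2597 normalized counts per kilobase. This grouping was described after the values had been seen.

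Co-receptors differed little. LRP5, which forms the canonical receptor with a frizzled, had 6014 normalized counts with TAZ4SA and 7355 in the control, 1.22-fold lower (1.18 to 1.27). Its paralog LRP6 had 3822 against 3909 and ROR1, a receptor of WNT5A, had 4014 against 4057, both with intervals that included 1. The interval of ROR1 was 0.943 to 1.04, in libraries whose WNT5A levels were 2.88-fold apart.

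Among receptors of R-spondins, secreted proteins that keep frizzleds on the surface, LGR4 was the abundant one. It had 4906 normalized counts against 6159 and was 1.26-fold lower (1.20 to 1.31). LGR6 was rare and was called lower on 12 and 41 reads, at 17.4 against 36.9 normalized counts (2.12-fold, 1.09 to 4.43). The TAZ4SA level of LGR6 was under the filter value of 20, and its mean of 27.1 passed because of the control level. ZNRF3, a ubiquitin ligase that removes frizzleds from the membrane, had 2066 against 1836 and was 1.12-fold higher (1.05 to 1.20). The related ligase gene RNF43 had 19 and 24 reads and an interval that included 1. Its exons share 4326 bases with another gene on the same strand, not analysed here. RNF43 exons also share 143 bases with SUPT4H1 on the same strand, at 3154.9 against 3002.5 normalized counts.

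The log2 ratios of the 7 cytoplasmic members ran from -0.09 to 0.21. None was called at 1.5-fold, and at the shares of all measured genes, 4.16% and 4.44%, under 1 call among 7 genes is the background. The dishevelled genes, which relay the receptor signal, were at 7180 against 6475 normalized counts for DVL1, 4893 against 5079 for DVL3 and 2726 against 2731 for DVL2. Of these the interval of DVL1 excluded 1, at 1.11-fold higher (1.07 to 1.15). AXIN1, the scaffold of the destruction complex, was 1.08-fold higher (1.02 to 1.15), at 3056 against 2821, and APC, its partner, was 1.07-fold lower (1.003 to 1.14), at 2303 against 2459.

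AXIN2 and NKD1 are feedback inhibitors that beta-catenin itself induces in many tissues. AXIN2 had 71.1 normalized counts with TAZ4SA and 61.2 in the control, a ratio of 1.16 (0.788 to 1.70). Exons of AXIN2 share 1316 bases with another gene on the same strand, not analysed here, and the part of this overlap was not tested. NKD1 had 165 against 148, a ratio of 1.12 (0.875 to 1.43). Both intervals included 1, and at this depth a difference of less than the interval's bounds was not detectable.

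The 4 TCF/LEF genes, whose products bind DNA and beta-catenin, had log2 ratios from -0.93 to 1.63. TCF7 (ENSG00000081059), a factor best known from T cells and epithelial stem cells, had 1216 normalized counts with TAZ4SA and 2315 in the control, from 838 and 2573 reads. It was 1.90-fold lower (1.76 to 2.06). TCF7L1 (ENSG00000152284), whose product acts mostly as a repressor, had 88.5 against 27.9, from 61 and 31 reads, and was 3.17-fold higher (2.03 to 5.06), the highest ratio of all members and rank 101 from the highest of all measured genes. LEF1 had 350 against 248 and was 1.41-fold higher (1.18 to 1.68), and TCF7L2 had 956 against 985 with an interval that included 1. Exons of TCF7 share 210 bases with those of SKP1 on the opposite strand, at 5159 against 6015 normalized counts, and the part of this overlap was not tested.

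Per kilobase, TCF7 was the leading TCF/LEF gene in the control and TCF7L2 with TAZ4SA. TCF7 made up 53.6% of the summed level of the 4 genes in the control and 34.7% with TAZ4SA, and TCF7L2 34.1% and 40.8%. LEF1 went from 10.8% to 18.7% and TCF7L1 from 1.47% to 5.76%. The sum was 348 normalized counts per kilobase with TAZ4SA and 429 in the control.

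**Figure D3:**
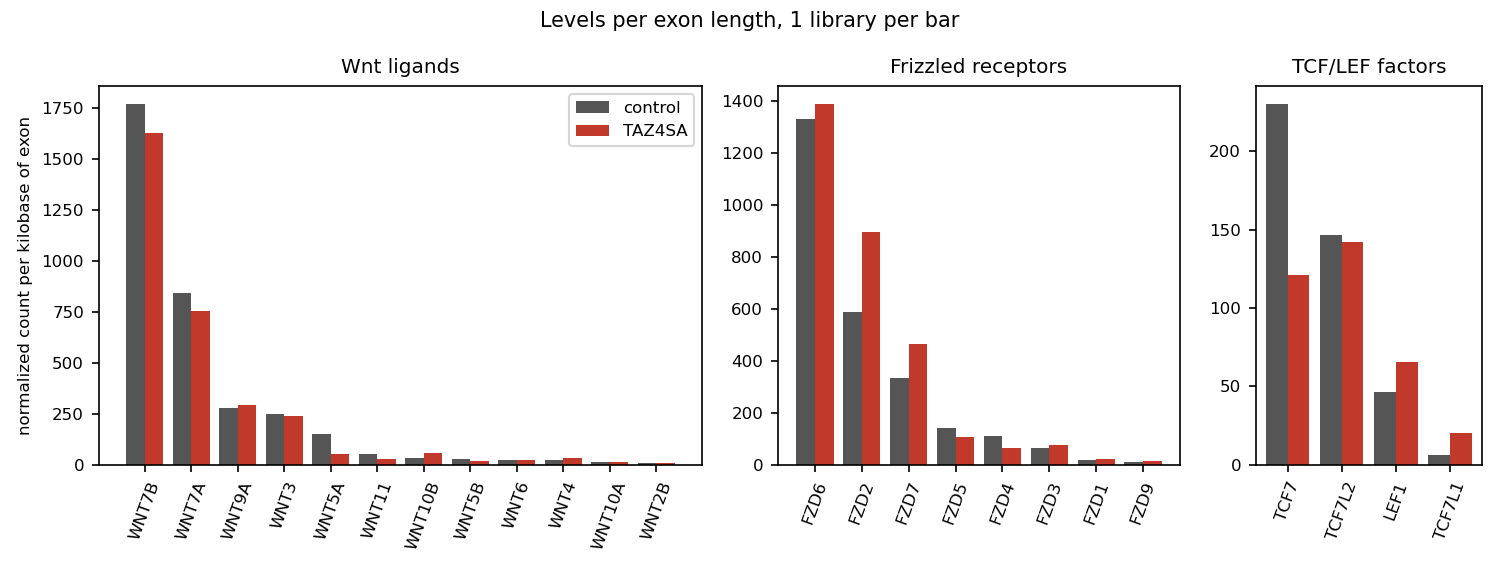
Normalized count per kilobase of exon (linear axes from 0, 1 library per bar) of the ligand, frizzled and TCF/LEF genes in the control (grey) and TAZ4SA (red) library, ordered by the control level within each panel. WNT7B and WNT7A lead the ligands in both libraries, the FZD2 and FZD7 bars are taller with TAZ4SA, and the TCF7 bar is shorter (121 against 230).

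Genes of the pathway outside the members were described from lists chosen with earlier results of these data known. The 22 measured genes of the destruction complex and beta-catenin had a median log2 ratio of -0.0019. None was called at 1.5-fold, beside 4.16% of all measured genes called higher and 4.44% lower, and lists this short hold few calls at those shares. CTNNB1, encoding beta-catenin, was at 19257 normalized counts with TAZ4SA and 20696 in the control, 1.07-fold lower (1.05 to 1.10), and the kinase gene GSK3B was 1.18-fold lower (1.13 to 1.23). The 20 nuclear co-factor genes also had 0 calls, with log2 ratios from -0.30 to 0.23 and a median of -0.08. Of the 20, 16 (80.0%) were below 0, against 49.95% of all measured genes.

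Of 24 listed target genes of beta-catenin outside the members, 13 were measured, and 0 of these were called at 1.5-fold. Members that beta-catenin can induce, such as AXIN2 and NKD1, were left out by construction, so the count does not describe all its targets. The same rule called 4.16% of all measured genes higher and 4.44% lower, and a list this short holds few calls at those shares. The median log2 ratio of the 13 was 0.14, with 8 above 0 and 5 below. MYC, a growth-promoting transcription factor gene, was 1.17-fold higher (1.14 to 1.20) and CCND1, encoding cyclin D1, 1.30-fold higher (1.27 to 1.33). EPHB2, a receptor gene of crypt epithelium, was 1.34-fold lower (1.26 to 1.42).

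Of 15 measured genes for secretion, co-receptors and extracellular modulators, 3 were called higher and 1 lower by the rule that called 4.16% and 4.44% of all measured genes, and the median log2 ratio was 0.18. NKD2, a feedback inhibitor related to NKD1, had 19 and 15 reads and was not called, at 2.04-fold with an interval of 0.983 to 4.32. Besides WLS, RECK, which with GPR124 forms a co-receptor for WNT7A and WNT7B, had 207 normalized counts against 127, or 1.63-fold higher (1.29 to 2.08). GPR124, named here after its value was seen, had 29.01 against 24.3 normalized counts and an interval that included 1. TRABD2B, a membrane protease that cleaves Wnt proteins, was 6.27-fold higher (2.95 to 14.8) on 35 and 9 reads. It had 50.8 normalized counts with TAZ4SA and 8.10 in the control. The control level was under the filter value of 20, and the mean of 29.4 passed because of the TAZ4SA level. GPC6, a glypican gene, was 2.10-fold lower (1.52 to 2.94), at 72.5 against 152.

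In the planar cell polarity and calcium list, the 33 measured genes had a median log2 ratio of -0.03, and 2 were called higher (6.06%) and 1 lower (3.03%). These shares are near the 4.16% and 4.44% of all measured genes and are not a result about the list. MAPK8, encoding the kinase JNK1, had 4781 normalized counts against 2530 and was 1.89-fold higher (1.80 to 1.99). VANGL2, a core polarity gene, was 2.24-fold higher (1.59 to 3.15) on 86 and 62 reads, while its abundant paralog VANGL1 was at 8660 against 9788. PLCB1, a phospholipase gene, was 1.67-fold lower (1.10 to 2.59) on 32 and 86 reads.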

How the data were processed

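RNA sequencing of 2 PC9 libraries was analysed, 1 labelled control and 1 expressing TAZ4SA. Tools listed without versions or settings in the submitters' processing notes are STAR, HTSeq, Trim Galore and DESeq2, with GRCh37 as the build. The deposited signal values are read counts per gene that the authors divided by 1 size factor per library: 100% of values in both columns were whole multiples of 1 step within 0.01 reads, giving factors of 0.689 (TAZ4SA) and 1.11 (control). The deposited log2 fold changes differed from log2 of the columns' ratio by at most 0.000136. The authors' table has 0 columns of p-values, and 0 tests were run here, with 1 library per group. The sources used here give neither RNA selection nor strandedness.

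Reads were recovered from the steps. Ratios carry 95% intervals from the conditional binomial (exact, Clopper-Pearson), and single levels have exact Poisson intervals. All cover counting error alone, since 1 library per group gives no spread between cultures. Reads are also not independent molecules, so the intervals can be too narrow even for counting error. The pseudocount was 1, the filter a mean normalized count of 20, and the threshold 1.5-fold with an interval excluding 1. Every member is accounted for. From other lists, genes past the threshold and CTNNB1, GSK3B, WLS, MYC, CCND1, CTGF, CYR61 and ANKRD1 were to be named, and the genes named beyond this (among them GPR124, VANGL1, EPHB2 and genes with overlapping exons) were chosen after their values were seen. Members and lists were chosen with earlier results of these data known. Exon lengths (union of exons) and overlaps came from GENCODE 29 on GRCh38 by gene ID, matched for all 42 members. Alternatives covered scaling, pseudocounts, filters, thresholds, thinning and gene length. The procedure was tested on simulated counts. Scaling factors came from DESeq2 1.42.0 and edgeR 4.0.16 in R 4.3.3, and all else from scipy 1.17.1, numpy 2.4.6, pandas 2.3.3 and matplotlib 3.10.9 in Python 3.11.15.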

Additional observations from a re-analysis of the deposited data

How the results depend on the processing

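Under 4 other scalings, pseudocounts of 0.1, 0.5 and 5, and control reads thinned to the TAZ4SA total, all 336 log2 ratios of the 42 members stayed within their counting intervals. For the 4 scalings this was close to fixed beforehand, since they placed the median log2 ratio of all measured genes between -0.0042 and 0.0036. All settings reused the same reads, so the spread between cultures was not covered. By construction a stricter threshold reduced the counts of 4 members higher and 6 lower, to 1 and 3 at 2-fold, with LGR6 among the 3. Requiring the interval's near bound to reach 1.5-fold left 2 (DKK1 and TCF7L1) and 3 (WNT5A, TCF7 and FZD4), beside 2.13% and 1.95% of all measured genes. Thinning, a single random draw, gave 5 higher and the same 6 lower, beside 4.05% and 4.53% of all measured genes. In that draw the call of WNT10B was lost and those of WNT4 and FZD1 were gained, and another draw could differ. With a mean of at least 100 normalized counts, 3 of 32 members were higher and 4 lower, beside 2.81% and 3.32% of all such genes, and the members' median log2 ratio was -0.0092 instead of 0.06, so the sign of that median depends on the filter. With the longest transcript in place of the exon union, a choice added after seeing the data, TCF7 made up 38.6% and TCF7L2 39.2% of the TCF/LEF level with TAZ4SA, and 57.6% and 31.7% in the control. No paired analysis was possible because there was 1 library per group, and for the same reason no library could be left out. Depth limits the rare members most, such as LGR6, with 12 reads in the TAZ4SA library.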
